A study of Mus musculus with 6 samples.

Results

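The genes described are the solute carrier (Slc) transporter genes of mouse brain leukocytes: every gene whose symbol starts with Slc and a digit and that had at least 500 raw counts of unique molecular identifiers (UMIs) over the 6 libraries, apart from 8 named exceptions. The exceptions, Slc2a1, Slc2a3, Slc2a5, Slc7a11, Slc11a1, Slc16a1, Slc16a3 and Slc40a1, are not described. Of 31053 features in the matrices, 375 had such a symbol, 181 of these reached 500 UMIs, and 173 remained. Totals ran from 501 UMIs for Slc9a3r2 to 139306 for Slc3a2. Just under the threshold lay Slc19a2 with 465 UMIs, Slc6a20b with 464 and Slc6a13 with 446, and just over it, after Slc9a3r2, came Slc10a1 with 502 and Slc14a1 with 508. By family the members were grouped into 35 mitochondrial carriers, 26 carriers of amino acids and peptides, 23 of metals, 20 of nucleotide sugars and acetyl-CoA, 19 of protons and inorganic ions, 19 of sugars, inositol and carboxylates, 12 of phosphate, organic ions and vesicular cargo, 7 of folate, vitamins and haem, 4 of fatty acids and choline, 3 of nucleosides and 1 of another family, and 4 carry the symbol without being transporters themselves (Slc4a1ap, Slc7a6os, Slc9a3r1 and Slc9a3r2).

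Solute carriers are membrane proteins that move small molecules across the plasma membrane and the membranes of mitochondria, lysosomes and the Golgi apparatus, some by facilitated diffusion and some by coupling to a sodium or proton gradient. They set what a cell can take up (amino acids, sugars, folate, metal ions), what it can move between compartments and how it keeps its volume and ion balance. Microglia, the resident macrophages of the brain, depend on them to take up glutamate and to empty lysosomes of the products of digestion.

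Single-cell RNA libraries came from 6 groups of C57BL/6 mice, 1 library each from a pool of 3 brains, with leukocytes enriched from perfused brain by Percoll and then sorted by flow as PI-CD45+ cells. Lyz2-cre mice carried Cd300a-fl/fl alleles together with Cre recombinase at the Lyz2 locus, and fl/fl mice carried the same Cd300a-fl/fl alleles without Cre; the libraries were Lyz2-cre naive, Lyz2-cre 1 h, Lyz2-cre 3 h, fl/fl naive, fl/fl 1 h and fl/fl 3 h. The times count from reperfusion after 60 min of filament occlusion of the middle cerebral artery, and the earliest group is called naive in the sample titles and 0 h in the series design. Lyz2 drives Cre in neutrophils, monocytes and macrophages, and ages were not given in the sources used here. No group has a second pool, so the libraries of the other genotype stood in as replicates of a time and those of the other times as replicates of a genotype. The p-values therefore judge an additive effect of time or genotype against the departures from additivity. In those departures, spread between pools and any difference of time course between genotypes are mixed.

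The libraries held 35479437 to 48478866 UMIs each, and the median cell held 3844 to 5179. Of 51005 barcodes 47077 were used as cells, and 305 barcode sequences occurred in 2 or more libraries, between 12 and 30 for any pair. Clusters were built without any Slc gene and named from marker genes alone, which gave per library 4422 to 7020 microglia-like cells, 103 to 826 monocyte-like cells and 141 to 1074 neutrophil-like cells. Lyz2 itself, whose coding sequence the Cre allele is known to disrupt, stood at 26.9 to 90.2 counts per 1000000 UMIs (CPM) in Lyz2-cre monocyte-like cells and 20100 to 26800 CPM in fl/fl monocyte-like cells. Cd300a stood at 5.57 to 15.7 CPM in Lyz2-cre neutrophil-like cells and 140 to 270 CPM in fl/fl ones. In monocyte-like cells Cd300a was at 227, 193 and 84.5 CPM in Lyz2-cre naive, 1 h and 3 h libraries. In fl/fl libraries of the same times it was at 482, 461 and 176 CPM. In microglia-like cells it was at 137, 172 and 166 CPM in Lyz2-cre and 171, 210 and 208 CPM in fl/fl libraries. In both classes it was lower in Lyz2-cre at each time. The sources used here do not give the floxed exons, so whether these counts at transcript ends cover the deleted part was not determined.

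Levels of a class are sums over its cells, 1 value for each library. Because each transcript is read at its polyadenylated end, these CPM do not scale with gene length. All classes were sorted together, and a lower level of a class sum cannot tell fewer expressing cells from less RNA per expressing cell.

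The carriers most abundant in microglia-like cells served amino acids, mitochondrial exchange and lysosomes. Slc3a2, the heavy chain that pairs with light chains into amino acid exchangers, was highest at a mean of 705 CPM (408 to 1044 over the 6 libraries). Slc25a5, a mitochondrial ADP/ATP carrier, averaged 497 CPM (461 to 528). Next came the lysosomal nucleoside carrier Slc29a3 with a mean of 318 CPM, the mitochondrial phosphate carrier Slc25a3 with 311 and the monocarboxylate family member Slc16a6 with 281. Slc25a5, Slc25a3 and the glutamine carrier Slc38a2 were among the 8 highest members in each of the 3 classes, and the taurine carrier Slc6a6 was among them in monocyte-like and neutrophil-like sums.

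Microglia-like sums were set against those of monocyte-like and neutrophil-like cells of the same libraries, with a call at an adjusted p under 0.05 and a difference of at least 2-fold (edgeR's quasi-likelihood test, libraries as blocks). The 500 UMIs that admitted a member were counted over all cells, and microglia-like cells made up 65.4% to 87% of a library. The rule therefore favoured genes high in these cells over genes low in them, and the counts below describe the members and are not support for a side. Against monocyte-like cells 61 of 172 members tested were higher in microglia-like cells and 11 lower. That is 41.9% of members, where 43.6% of all genes passed (25.1% higher and 18.5% lower). Against neutrophil-like cells 96 were higher and 24 lower, 69.8% of members beside 63.5% of all genes (39.3% higher and 24.2% lower).

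By substrate, the side of the difference varied. Of 26 amino acid and peptide carriers, 14 were higher in microglia-like than in monocyte-like cells and 1 lower, and of 19 carriers of sugars, inositol and carboxylates 11 were higher and 2 lower. Of the 7 carriers of folate, vitamins and haem 5 were higher and none lower. Among 35 mitochondrial carriers the counts were 8 and 3, and among 20 carriers of nucleotide sugars and acetyl-CoA they were 1 and 2. Against neutrophil-like cells 6 of the 7 folate, vitamin and haem carriers were higher, and of the 4 fatty acid and choline carriers 1 was higher and 2 lower. Of all genes 25.1% were higher and 18.5% lower against monocyte-like cells, and 39.3% and 24.2% against neutrophil-like cells. Differences between substrate groups were not tested.

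The largest differences belonged to carriers that 1 class barely used. Slc1a3, a glutamate transporter that astrocytes are best known for, averaged 203 CPM in microglia-like cells (153 to 258) and 0.473 CPM in monocyte-like cells (0 to 0.991), a log2 difference of 8.40 ± 0.29 (SE, adjusted p = 3.27e-13 by edgeR). Slc46a1, the proton-coupled folate transporter, averaged 73.5 CPM in microglia-like cells, 0.821 in the monocyte-like class and 0.366 in the neutrophil-like class. Its log2 difference from monocyte-like cells was 6.16 ± 0.34 (adjusted p = 7.69e-11 by edgeR). The neutrophil-like sums held 3 UMIs of it in all, so the ratio of 341 to microglia-like cells has a 95% counting interval of 117 to 1650. Border-associated macrophage-like cells held it at a mean of 12.8 CPM (0 to 27.6), and every class other than these averaged under 2 CPM. Slc1a3 and Slc46a1 were named for the size of their differences, and microglia-like cells held 12342 of the 14303 UMIs of Slc46a1. Their p-values are therefore descriptions and not support for a side.

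Some members had no UMI in a whole class. They were admitted largely through microglia-like cells, which held 1159 of the 1352 UMIs of Slc36a2 and 427 of the 572 of Slc43a1, so their bounds are descriptions. Slc36a2, a proton-coupled amino acid carrier, was at least 40.8-fold higher in microglia-like than in monocyte-like cells against a floor of 3 UMIs over the class. By the same floor Slc5a10, a sodium-coupled sugar carrier, was at least 29.2-fold higher, and Slc43a1, a carrier of neutral amino acids, at least 15-fold higher. Against neutrophil-like cells the fatty acid carrier Slc27a1, the dicarboxylate carrier Slc13a3 and the vesicular polyamine carrier Slc18b1 were at least 53.7-fold, 47.5-fold and 46.1-fold higher. These are lower bounds, and they cover counting error only.

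Other members were lower in microglia-like cells. Slc28a2, a concentrative carrier of purine nucleosides, averaged 0.0706 CPM in microglia-like cells, 18.9 in monocyte-like cells and 34.8 in neutrophil-like cells, and B cell-like cells held the most at 42.2. Slc25a24, a mitochondrial ATP-magnesium/phosphate carrier, averaged 0.0961 CPM in microglia-like cells, 19.8 in monocyte-like cells and 50.9 in neutrophil-like cells. Slc22a15 averaged 0.353, 36.9 and 126 CPM in the same classes, and its neutrophil-like level was above that of every other class in all 6 libraries. Slc2a6, a glucose transporter family member, averaged 1.22, 38.3 and 59.2 CPM. All 16 differences named in each of the contrasts held when any 1 library was left out. The order of the neutrophil-like and monocyte-like levels was not tested.

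Within a family, close relatives differed in how their levels varied between classes. Slc25a4 and Slc25a5 encode ADP/ATP carriers of the mitochondrial inner membrane. Slc25a5 was abundant throughout, with a mean of 134 CPM in neutrophil-like cells and 589 in monocyte-like cells. Slc25a4 averaged 1.23 CPM in neutrophil-like cells, and the log2 difference of microglia-like from neutrophil-like cells was 5.39 ± 0.31 (adjusted p = 8.51e-11 by edgeR). Likewise Slc27a4, a fatty acid carrier, averaged 17.2 CPM in microglia-like and 122 in neutrophil-like cells, whereas its relative Slc27a1 had no UMI in neutrophil-like cells.

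**Figure D1:**
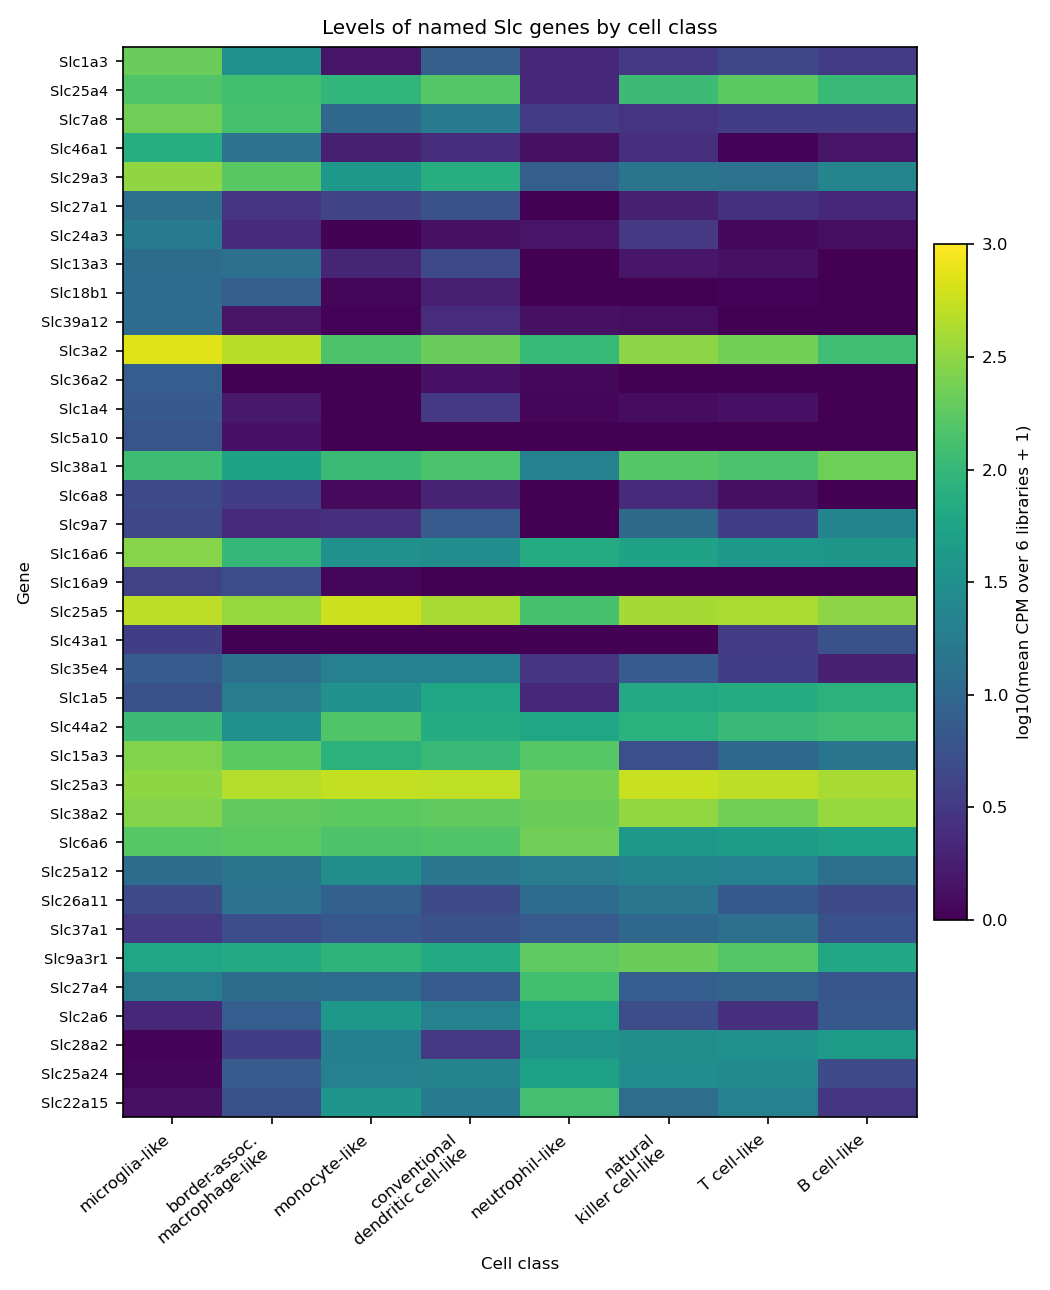
Colour gives the mean level of each named Slc gene (rows) over the 6 libraries, as log10(CPM + 1), in 8 marker-defined cell classes (columns). Slc46a1 and Slc1a3 are bright in microglia-like cells, at means of 73.5 and 203 CPM, and Slc22a15 and Slc25a24 in neutrophil-like cells, at 126 and 50.9 CPM.

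In microglia-like cells the members changed both ways by 3 h after reperfusion. Of 171 members tested (Slc28a2 and Slc25a24 were too low), 44 rose and 51 fell against naive cells. Together they are 55.6%, beside 48.2% of all 12805 genes tested (24.6% rose and 23.6% fell), so a change at 3 h was common and by itself says nothing particular of the members. The median log2 fold change was 0.01 for the members and -0.02 for all genes. DESeq2 called 38 that rose and 26 that fell, and without the fl/fl naive library edgeR called 48 members in all. In these cells 10 of 11 microglia markers were lower in both 3 h libraries than in both naive ones, and their summed level was 23500 (Lyz2-cre) and 20200 CPM (fl/fl) at 3 h and 32600 (Lyz2-cre) and 31200 CPM (fl/fl) in naive cells. The summed monocyte markers stood at 34.1 (Lyz2-cre) and 28.8 CPM (fl/fl) at 3 h and 16.4 (Lyz2-cre) and 14 CPM (fl/fl) in naive cells, with 5 of the 10 higher at 3 h, beside 12600 and 12800 CPM in monocyte-like cells at 3 h. The summed neutrophil markers stood at 270 (Lyz2-cre) and 291 CPM (fl/fl) at 3 h and 303 and 241 CPM in naive cells, with 6 of 10 higher and 3 lower. The summed border-associated macrophage markers stood at 23.7 and 16.8 CPM at 3 h and 15.8 and 8.03 CPM in naive cells, with 3 of 8 higher and 1 lower. Their part in the results below was not tested.

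Slc46a1 fell furthest of the members called. The gene lies on chromosome 11 (chr11:78465697-78472059, plus strand, GRCm38, ENSMUSG00000020829 in GENCODE M21), and its product carries folate into cells and out of endosomes together with protons. Its level was 88.4, 106 and 31.1 CPM in Lyz2-cre naive, 1 h and 3 h microglia-like cells and 92.0, 97.7 and 25.6 CPM in fl/fl cells of the same times. Both 3 h libraries lay below all 4 others, and both 1 h libraries lay above both naive ones. The log2 fold change was -1.58 ± 0.09 at 3 h against naive (adjusted p = 1.63e-06) and 0.29 ± 0.09 at 1 h against naive (adjusted p = 0.0355), by edgeR's test across all genes. The fall at 3 h kept its call in all 13 alternatives tried, among them the 6 that left out a library.

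Within the clusters below that held cells of both times, Slc46a1 was lower at 3 h than at 1 h. Values were worked out only where a cluster held a minimum number of cells of a time, and no cluster reached it for both naive and 3 h cells. Cluster 19, led by Tmem119, Sparc and Adamts1, held 2.69% (Lyz2-cre) and 3.34% (fl/fl) of naive cells. At 3 h it held 0.882% and 0.656%, too few for a value. The fall from naive was therefore not compared within clusters. Most microglia-like clusters were made of cells of 1 time, but a cluster led by Sox4 and Hspa1a (cluster 3) and one led by Ccl12, Gpr84 and Il1a (cluster 10) held cells of both 3 h and 1 h. So did cluster 1, led by Sparc, Olfml3 and P2ry12, with 115 cells of 3 h beside 5258 of 1 h. It had 63.9 CPM of Slc46a1 at 3 h (95% Poisson interval 41.8 to 93.7) and 109 CPM at 1 h (104 to 113). Cluster 3 had 47.9 CPM of Slc46a1 at 3 h (95% Poisson interval 44.2 to 51.7) and 80.1 CPM at 1 h (62.7 to 101). Cluster 10 had 13.1 CPM at 3 h (9.88 to 17) and 54.1 CPM at 1 h (41.1 to 70). The lowest levels at 3 h, 12.8 and 12.3 CPM, were in the clusters led by Gdf15 and Pmp22 (cluster 7) and by Rcan1 and Pmp22 (cluster 9). These intervals cover counting error only, and clusters were not tested against each other.

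**Figure D2:**
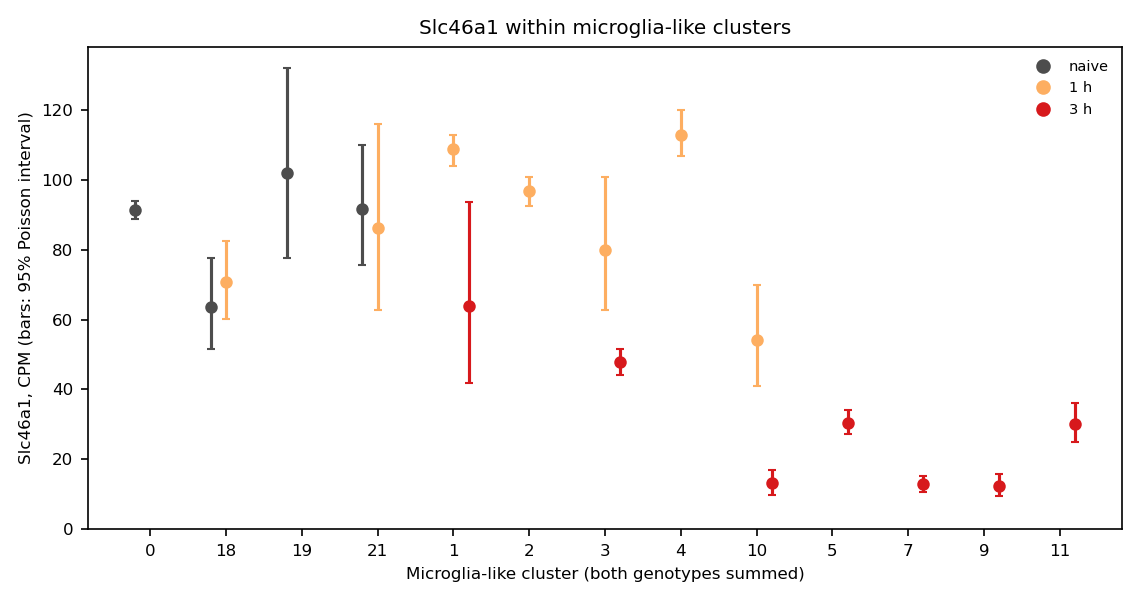
Points give the level of Slc46a1 (CPM, both genotypes summed) in microglia-like clusters at naive, 1 h and 3 h, with 95% Poisson intervals as bars. Clusters with few cells of a time have no point there. The 3 h points run from 12.3 to 63.9 CPM and the naive points from 63.7 to 102 CPM.

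At 3 h 23.6% of all genes fell and 24.6% rose. Of the 7 carriers of folate, vitamins and haem, Slc46a1 among them, 5 fell and 1 rose. Slc46a3, a lysosomal relative, was at 62.6, 71.0 and 30.6 CPM in Lyz2-cre naive, 1 h and 3 h cells and 69.7, 61.1 and 23.8 CPM in fl/fl cells, with a log2 fold change of -1.19 ± 0.12 at 3 h (adjusted p = 0.000107 by edgeR). Slc48a1, which moves haem out of lysosomes, was at 33.1, 26.9 and 19.1 CPM in Lyz2-cre cells and 30.4, 25.5 and 16.8 CPM in fl/fl cells over the same times, lower in both 3 h libraries than in the other 4. Slc19a1, the reduced folate carrier, fell by 0.30 ± 0.11 on the log2 scale (adjusted p = 0.042 by edgeR), and Slc52a2, a riboflavin carrier, fell by 0.35.

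The riser of the group was Slc23a2, a sodium-coupled carrier of vitamin C. Its level was 49.1, 37.4 and 85.2 CPM in Lyz2-cre naive, 1 h and 3 h cells and 43.3, 41.2 and 118 CPM in fl/fl cells, a log2 fold change of 1.22 ± 0.17 at 3 h (adjusted p = 0.0022 by edgeR). The remaining member, Slc46a2, was not called (0.87 ± 0.50, adjusted p = 0.246 by edgeR). Of the 18 tested genes on a list of folate and one-carbon metabolism, 4 rose and 2 fell, beside 24.6% and 23.6% of all genes. Their median log2 fold change was 0.04. Shmt1, cytosolic serine hydroxymethyltransferase, rose by 1.25 ± 0.21, and Mthfd2, a mitochondrial enzyme of the same pathway, by 0.60 ± 0.13 after a fall of 0.88 ± 0.14 at 1 h. Ggh, which trims polyglutamate from folates in lysosomes, fell by 0.36 ± 0.10 on the log2 scale.

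Both nucleoside carriers tested fell. Slc29a3, which exports nucleosides from lysosomes, was at 388, 376 and 210 CPM in Lyz2-cre naive, 1 h and 3 h cells and 422, 326 and 187 CPM in fl/fl cells, a log2 fold change of -0.93 ± 0.10 at 3 h (adjusted p = 6.19e-05 by edgeR). Slc29a1, the equilibrative carrier of the plasma membrane, fell by 0.24 ± 0.08, a call lost when any of 4 libraries was left out (fl/fl naive, fl/fl 1 h, fl/fl 3 h and Lyz2-cre 1 h). Lysosomal carriers did not move as a block. Of 11 on a list of them 5 fell and 4 rose at 3 h, beside 23.6% and 24.6% of all genes. Among those that rose were Slc15a4, a carrier of histidine and peptides (0.55), and Slc35f6 (0.87), the second of which was not called without the fl/fl naive library.

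Slc39a14 and Slc5a3 rose furthest. Slc39a14, which imports zinc and iron, was at 8.57, 7.45 and 33.7 CPM in Lyz2-cre naive, 1 h and 3 h cells and 8.94, 10.0 and 37.5 CPM in fl/fl cells. The log2 fold change was 2.12 ± 0.11 at 3 h (adjusted p = 7.35e-07 by edgeR). At 1 h its change was 0.10 ± 0.12 (adjusted p = 0.569 by edgeR). Slc5a3, a sodium-coupled importer of the osmolyte myo-inositol, was at 8.57, 8.41 and 27.9 CPM in Lyz2-cre cells and 7.63, 13.5 and 37.8 CPM in fl/fl cells, a log2 fold change of 2.09 ± 0.18 at 3 h (adjusted p = 0.000134 by edgeR). Slc5a3 shares exons on its strand with Mrps6, a mitochondrial ribosomal protein gene, and with Gm49711, so its reads are not certain to be its own. Mrps6 changed by 0.36 ± 0.10 at 3 h.

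These rises were highest in different microglia-like clusters, but cluster 7, led by Gdf15 and Pmp22, held both. At 3 h it had 46 CPM of Slc39a14 (95% Poisson interval 41.8 to 50.7) and 38.4 CPM of Slc5a3 (34.5 to 42.6). Naive cells of cluster 0, led by Sparc, Olfml3 and Tmem119, had 8.63 and 8.16 CPM. At 3 h Slc39a14 was highest in the cluster led by Ccl12, Gpr84 and Il1a, at 131 CPM (95% Poisson interval 120 to 142), and was 9.32 CPM in the Sox4-led cluster 3 and 14 CPM in cluster 11, led by the heat shock genes Hspb1 and Hspa1a. Slc5a3 instead had 101 CPM (90.8 to 111) in cluster 11, 34.4 in cluster 3 and 11.9 in cluster 10. Slc20a1, a sodium-coupled phosphate importer, was likewise highest in cluster 11 at 104 CPM and lowest in cluster 5, led by Sparc and Slc1a3, at 14.5 CPM. Cluster 7 had 69 CPM of Slc20a1. Slc3a2 was highest in cluster 7, at 1770 CPM, and stood at 434 CPM in cluster 3.

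Among metal carriers 8 of 23 rose and 4 fell, beside 24.6% and 23.6% of all genes. Slc11a2, a proton-coupled importer of ferrous iron, was at 18.2, 19.9 and 41.2 CPM in Lyz2-cre naive, 1 h and 3 h cells and 18.6, 19.6 and 67.7 CPM in fl/fl cells (log2 fold change 1.64 ± 0.23 at 3 h), a call lost without the fl/fl naive library. Slc30a1, which exports zinc, rose by 1.24 ± 0.12 and was at 21.3 (Lyz2-cre) and 23.2 CPM (fl/fl) at 3 h, against 9.85 and 10.4 CPM in naive cells. The copper importer Slc31a1 had already risen at 1 h: 36.3, 51.8 and 70.7 CPM in Lyz2-cre naive, 1 h and 3 h cells and 32.3, 58.4 and 69.0 CPM in fl/fl cells. Its log2 fold change was 0.80 ± 0.09 at 1 h and 1.12 ± 0.09 at 3 h against naive (adjusted p = 0.000282 and 1.2e-05 by edgeR). Slc41a3, a magnesium carrier, fell by 0.80 ± 0.11 on the log2 scale.

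Amino acid carriers rose more often than they fell, 12 against 5 of 26 at 3 h, beside 24.6% and 23.6% of all genes. Their median log2 fold change was 0.26, beside -0.02 for all genes. Slc3a2 (chr19:8706882-8723369, minus strand, GRCm38) was at 423, 715 and 891 CPM in Lyz2-cre naive, 1 h and 3 h cells and 408, 749 and 1044 CPM in fl/fl cells. It rose by 0.93 ± 0.10 at 1 h and by 1.32 ± 0.10 at 3 h (adjusted p = 0.000197 and 8.21e-06 by edgeR), and the libraries of the 3 times did not overlap. The glutamine carrier Slc1a5 rose by 1.26 ± 0.20 and Slc7a6, a light chain partner of Slc3a2, by 1.09 ± 0.13 at 3 h. Slc38a2 rose by 0.56 ± 0.09.

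Slc7a1 and Slc15a3 dipped at 1 h before they rose. Slc7a1, an importer of arginine and lysine, was at 22.6, 10.2 and 34.4 CPM in Lyz2-cre naive, 1 h and 3 h cells and 17.4, 11.4 and 39.7 CPM in fl/fl cells. Slc15a3, a lysosomal carrier of histidine and peptides, was at 328, 137 and 334 CPM in Lyz2-cre cells and 302, 155 and 363 CPM in fl/fl cells. In both genes the 2 libraries at 1 h were the lowest of the 6. The log2 fold change at 1 h was -0.78 ± 0.15 for Slc7a1 (adjusted p = 0.00828 by edgeR, lost without either Lyz2-cre naive or Lyz2-cre 1 h) and -1.0 ± 0.09 for Slc15a3 (adjusted p = 6.96e-05 by edgeR). At 3 h against 1 h it was 1.77 ± 0.15 and 1.24 ± 0.09.

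Genes that the transcription factor ATF4 is known to drive in amino acid shortage were listed from general knowledge. Of the 15 tested, 7 rose and 1 fell at 3 h, where 24.6% of all genes rose and 23.6% fell. At 1 h 1 rose and 3 fell, where 14.4% of all genes rose and 13.1% fell. In all 53.3% of the list was called at 3 h and 26.7% at 1 h, beside 48.2% and 27.5% of all genes. Atf4 itself was at 329, 178 and 363 CPM in Lyz2-cre naive, 1 h and 3 h cells and 346, 197 and 412 CPM in fl/fl cells, with log2 fold changes of -0.74 ± 0.08 at 1 h and 0.30 ± 0.08 at 3 h. Chac1, a glutathione-degrading enzyme, was at 2.55 (Lyz2-cre) and 3.58 CPM (fl/fl) at 3 h and under 1 CPM in every naive and 1 h library, a rise of 3.43 ± 0.41 against naive. Of the 7 tested Slc members on the companion list of ATF4 targets, 4 rose at 3 h and none fell.

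**Figure D3:**
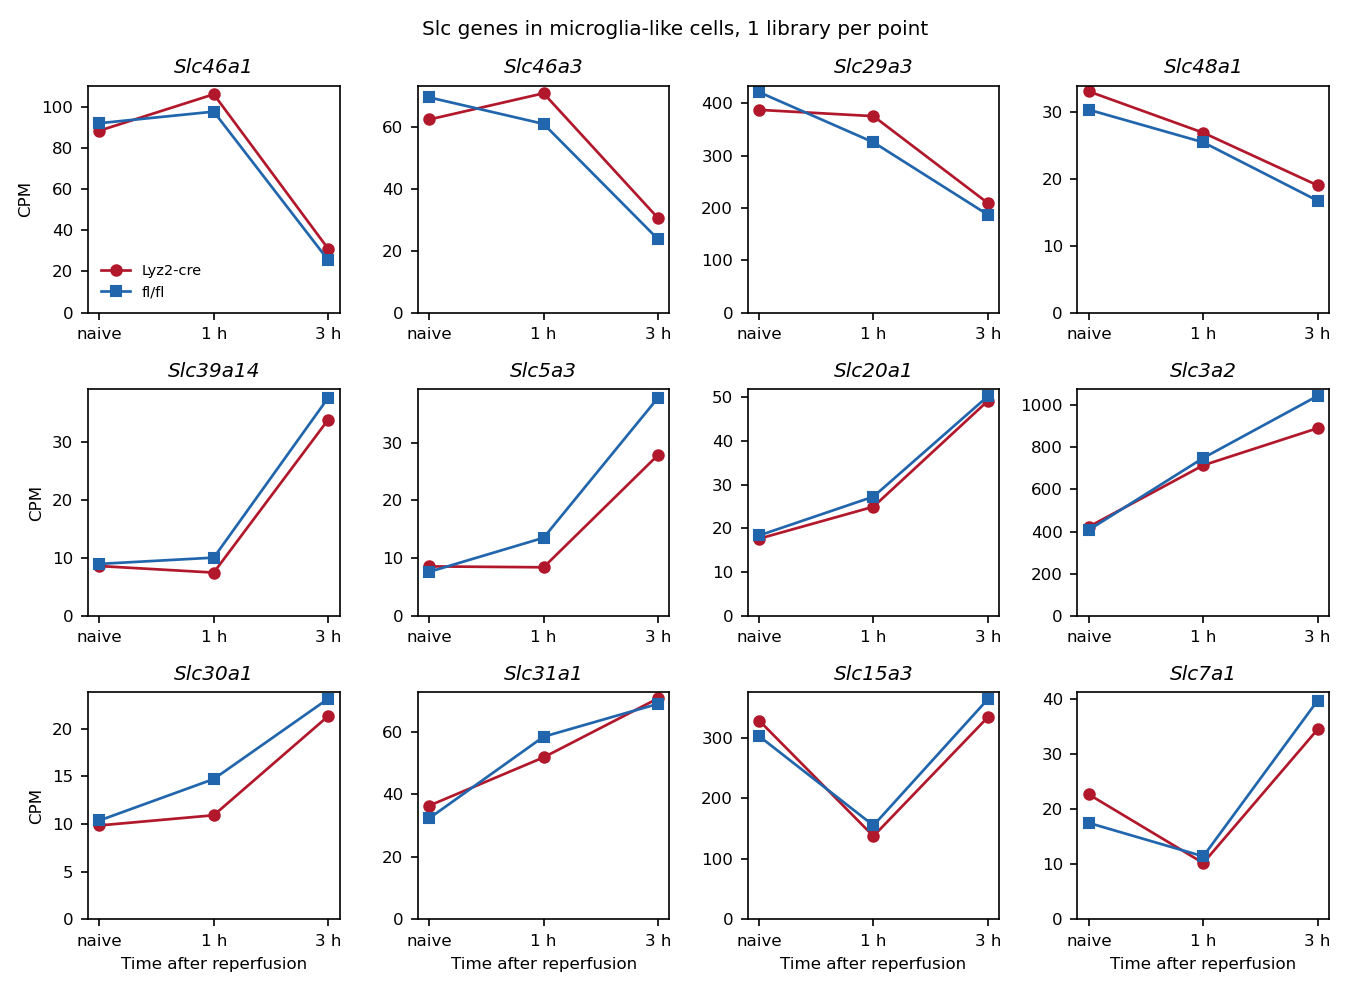
Each panel gives the level of 1 Slc gene in microglia-like cells (CPM, vertical axis from 0) by time, 1 library per point, for Lyz2-cre (red circles) and fl/fl mice (blue squares). Slc46a1 lies at 31.1 and 25.6 CPM at 3 h, Slc39a14 at 33.7 and 37.5 CPM, and Slc15a3 dips to 137 and 155 CPM at 1 h.

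Mitochondrial carriers split into 7 that rose and 11 that fell of 34 tested at 3 h, beside 24.6% and 23.6% of all genes. Slc25a33, a carrier of pyrimidine nucleotides, was at 17.3, 25.4 and 44.6 CPM in Lyz2-cre naive, 1 h and 3 h cells and 16, 34.9 and 49.6 CPM in fl/fl cells, with a log2 fold change of 1.59 ± 0.12 at 3 h (adjusted p = 9.64e-06 by edgeR). Slc25a20, the carnitine/acylcarnitine carrier for fatty acid oxidation, rose by 1.02 ± 0.16. Slc25a25, a calcium-regulated ATP-magnesium/phosphate carrier, was at 57.0 (Lyz2-cre) and 116 CPM (fl/fl) at 3 h and at 30.4 and 31.9 CPM in naive cells, a change of 1.5 ± 0.29 that was not called without either 1 h library. The abundant Slc25a5 did not pass (-0.06 ± 0.08), while Slc25a3 rose by 0.32 ± 0.08.

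Of 19 carriers of sugars, inositol and carboxylates, 4 rose and 7 fell, beside 24.6% and 23.6% of all genes. Slc2a9, a urate and sugar transporter, was at 9.24, 6.62 and 4.65 CPM in Lyz2-cre naive, 1 h and 3 h cells and 7.48, 6.10 and 2.67 CPM in fl/fl cells (log2 fold change -1.10 ± 0.18 at 3 h). Slc2a8, an intracellular hexose transporter, fell by 0.58 ± 0.08, and Slc16a6 by 0.35 ± 0.11. Slc16a10, a carrier of aromatic amino acids, rose by 1.14 ± 0.27, a call lost without the fl/fl naive library. Phosphate, organic ion and vesicular carriers fell in 5 of 12 cases and rose in 1. That riser was Slc20a1 (chr2:129198764-129211616, plus strand, GRCm38), at 17.6, 25 and 49.2 CPM in Lyz2-cre naive, 1 h and 3 h cells and 18.4, 27.3 and 50.2 CPM in fl/fl cells. Its log2 fold change was 0.65 ± 0.09 at 1 h and 1.56 ± 0.09 at 3 h (adjusted p = 0.000769 and 9.54e-07 by edgeR), and no 2 times overlapped. Slc18b1 fell by 1.04 ± 0.14 on the log2 scale.

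The remaining groups were ion, Golgi and fatty acid carriers, to be read beside the 24.6% of all genes that rose and 23.6% that fell. Of 19 ion carriers 4 rose and 4 fell at 3 h; Slc8a1, a sodium/calcium exchanger, rose by 0.91 ± 0.10 and was at 35 (Lyz2-cre) and 35.8 CPM (fl/fl) at 3 h, against 19.8 and 20.4 CPM in naive cells. On a list of sodium-potassium pump genes 3 of 7 tested rose and none fell. Of 20 carriers of nucleotide sugars and acetyl-CoA 5 rose and 5 fell, including Slc35b2, which brings the sulphate donor PAPS into the Golgi and fell by 0.56 ± 0.08. Of 4 fatty acid and choline carriers 2 fell, Slc27a4 by 0.51 ± 0.13 and Slc44a2 by 0.26 ± 0.09, and both calls were lost without the fl/fl naive library, that of Slc44a2 also without fl/fl 3 h. The scaffold Slc9a3r1, no transporter itself, rose by 0.57 ± 0.09.

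**Figure D4:**
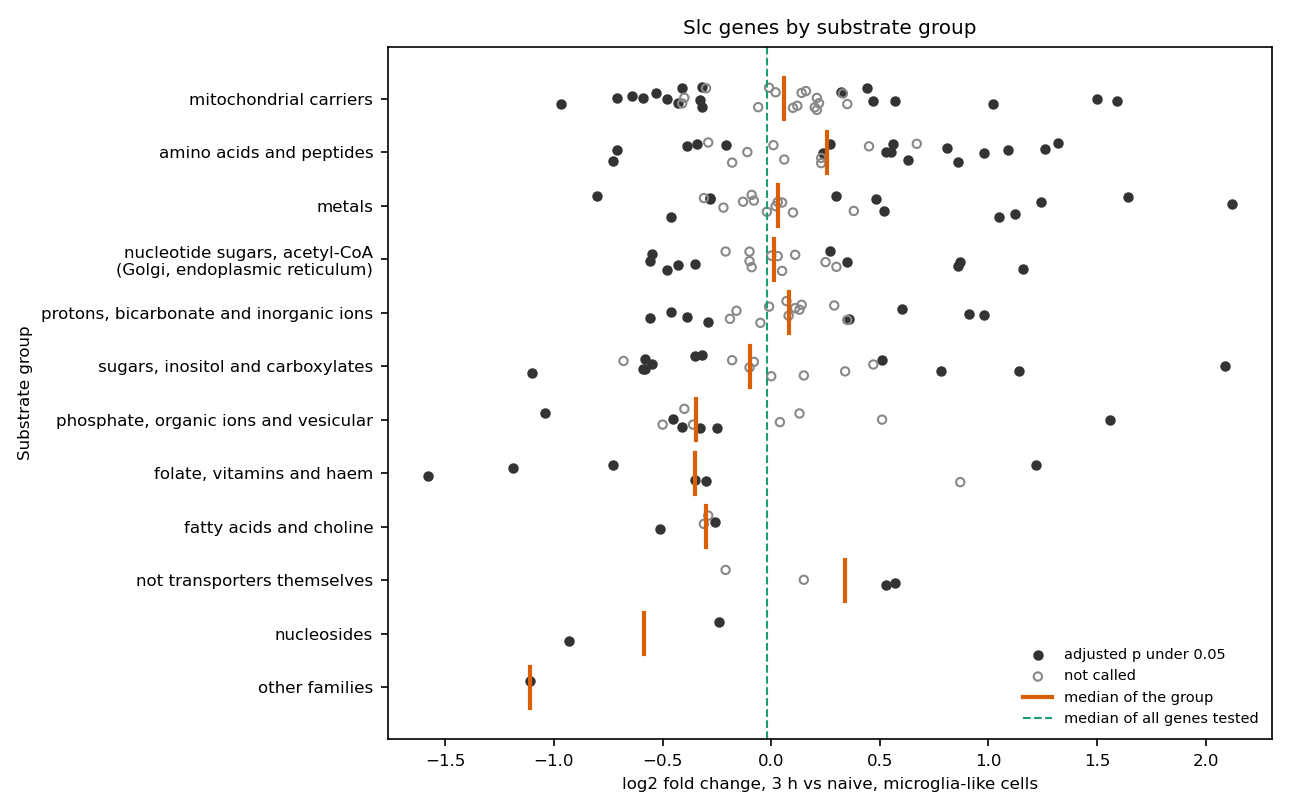
Points are the log2 fold changes of single Slc genes at 3 h against naive in microglia-like cells, by substrate group, filled where the adjusted p was under 0.05. Orange bars mark group medians, which run from 0.34 for the genes that are not transporters to -1.11 for the other family, and the dashed line marks the median of all genes tested (-0.02).

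At 1 h against naive 40 members rose and 8 fell in microglia-like cells, 28.1% of members beside 27.5% of all genes (14.4% rose and 13.1% fell), with a median log2 fold change of 0.12 beside -0.02. Summed microglia markers stood at 39000 (Lyz2-cre) and 35300 CPM (fl/fl) at 1 h and 32600 and 31200 CPM in naive cells. The count of calls was 26 without fl/fl naive, 20 without Lyz2-cre naive, and 21 without either library of 1 h. Amino acid carriers rose in 8 and fell in 3 of 26 cases, metal carriers rose in 8 of 23 with none falling, and mitochondrial carriers rose in 5 of 34. Slc43a2, a carrier of neutral amino acids, was at 92.7 (Lyz2-cre) and 96.1 CPM (fl/fl) at 1 h, against 57.5 and 56.8 CPM in naive cells. It rose by 0.84 ± 0.08 (adjusted p = 9.53e-05 by edgeR), and Slc9a3r1 rose by 0.91 ± 0.09 (adjusted p = 0.000104 by edgeR). The deepest fall was that of Slc10a1, a bile acid transporter of liver, at 1.00 (Lyz2-cre) and 0.75 CPM (fl/fl) at 1 h against 5.04 and 2.63 CPM in naive cells, a call lost without Lyz2-cre naive. Of the 18 genes named for this comparison 8 kept their call without any 1 library: Slc15a3, Slc20a1, Slc25a33, Slc31a1, Slc35f5, Slc3a2, Slc43a2 and Slc9a3r1.

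Between 3 h and 1 h, 34 members rose and 56 fell, 52.6% of members beside 47.3% of all genes (25.2% rose and 22.1% fell). Slc46a1 again led the fallers with a log2 fold change of -1.86 ± 0.09 (adjusted p = 1.68e-06 by edgeR), followed by Slc43a1 and Slc46a3 at -1.30 each. Slc39a14 led the risers with 2.02 ± 0.11. Sugar carriers fell in 8 and rose in 4 of 19 cases. All 20 genes named for this comparison kept their call without any 1 library. The comparison shares its 3 h libraries with that of 3 h against naive, so the lists are not independent.

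The genotype moved no member past the threshold in edgeR's main fit, which tests only an effect shared by the 3 times. A difference at 1 time alone enters the error of that fit and was not tested. At 3 h clusters 7 and 11 made up 10.6% and 5.85% of Lyz2-cre microglia-like cells and 25.2% and 15% of fl/fl ones. Clusters 3 and 9 made up 39.6% and 13.3% of Lyz2-cre and 26.1% and 5.56% of fl/fl ones. The part of this mix in the levels was not tested. In microglia-like cells edgeR called 0 of 171 members between Lyz2-cre and fl/fl mice, with 16 at an unadjusted p under 0.05, where 0.422% of all genes were called. DESeq2 called 1 member, Slc15a4, with a log2 fold change of -0.33 in the edgeR fit (adjusted p = 0.0971). Its level was 92.7, 122 and 119 CPM in Lyz2-cre naive, 1 h and 3 h cells and 105, 148 and 153 CPM in fl/fl cells, lower in Lyz2-cre at each of the 3 times. The smallest adjusted p by edgeR was that of the zinc carrier Slc39a10 (-0.36 ± 0.07, adjusted p = 0.0723), at 26.4, 29.2 and 36 CPM in Lyz2-cre and 33.8, 35.2 and 44.4 CPM in fl/fl cells. In monocyte-like cells edgeR called 0 of 131 members (10 at an unadjusted p under 0.05, and DESeq2 0), beside 0.0802% of all genes. In neutrophil-like cells it called 0 of 93 (4 at an unadjusted p under 0.05, and DESeq2 0), beside 0.0275% of all genes.

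In monocyte-like cells 15 of 131 members rose and 21 fell at 3 h against naive, 27.5% beside 26% of all genes (13.3% rose and 12.6% fell). Without Lyz2-cre naive 19 were called and without Lyz2-cre 3 h 23. The class held a cluster led by Vcan and other markers of classical monocytes and a cluster led by Ace and Treml4, and the share of the Treml4-led cluster was 16.8% (Lyz2-cre) and 18.1% (fl/fl) of the class at 3 h and 70.5% and 59.2% in naive brain. The Vcan-led cluster alone gave 18 calls and the Treml4-led cluster alone gave 2. Summed neutrophil markers in the class stood at 1960 (Lyz2-cre) and 1950 CPM (fl/fl) at 3 h and 238 and 190 CPM in naive brain, with 6 of 10 higher at 3 h, and border-associated macrophage markers at 1380 and 1220 CPM against 340 and 438 CPM, with 2 of 8 higher and Lyve1 and Folr2 at 0. Other lists were lower: summed microglia markers stood at 283 (Lyz2-cre) and 260 CPM (fl/fl) at 3 h and 818 and 1170 CPM in naive brain, with 8 of 11 lower and 1 higher. Summed B cell markers stood at 55.6 and 45.8 CPM at 3 h and 254 and 257 CPM in naive brain, and oligodendrocyte markers at 56.4 and 47.1 CPM against 208 and 231 CPM. The part of any of these in these changes was not tested beyond the single-cluster values below.

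Slc39a14 rose here too. It was at 4.71, 4.29 and 34.4 CPM in Lyz2-cre naive, 1 h and 3 h monocyte-like cells and at 0, 5.95 and 56.2 CPM in fl/fl cells, and the log2 fold change was 3.78 ± 0.45 (adjusted p = 0.000125 by edgeR) in the whole class and 3.17 in the Vcan-led cluster alone. Slc16a6 was at 11.2, 20.9 and 66.2 CPM in Lyz2-cre cells and 17.3, 15.9 and 62.0 CPM in fl/fl cells, a rise of 2.46 ± 0.26 in the class (adjusted p = 4.99e-05 by edgeR) and 1.72 in the Vcan-led cluster (adjusted p = 0.000377 by edgeR). Slc7a5, the light chain that forms the large neutral amino acid exchanger with Slc3a2, had no UMI in either naive library and 15.5 (Lyz2-cre) and 10.3 CPM (fl/fl) at 3 h. Against a floor of 3 UMIs over the naive libraries it was at least 10.7-fold higher, and the call held without any 1 library. Slc23a2 rose by 1.53 ± 0.31 (adjusted p = 0.00433 by edgeR), a call lost without Lyz2-cre naive and in the Vcan-led cluster alone, where the change was 1.09 (adjusted p = 0.0674 by edgeR).

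Of the fallers, Slc46a3 was at 37.1, 23.1 and 5.73 CPM in Lyz2-cre naive, 1 h and 3 h monocyte-like cells and 60.4, 22.8 and 4.54 CPM in fl/fl cells. Its log2 fold change was -2.96 ± 0.29 in the class (adjusted p = 2.87e-05 by edgeR), -3.35 in the Vcan-led and -1.08 in the Treml4-led cluster. Slc12a2, which brings sodium, potassium and chloride into cells, was at 22.1 (Lyz2-cre) and 25.8 CPM (fl/fl) at 3 h and 176 and 119 CPM in naive brain. It fell by 2.49 ± 0.20 in the class and by 0.58 in the Treml4-led cluster, and it had no value for the Vcan-led cluster alone. Slc29a1 fell by 1.82 ± 0.28, and it was not called in either cluster alone (-0.92, adjusted p = 0.199 in the Vcan-led and -0.71, adjusted p = 0.165 in the Treml4-led cluster). The same held for Slc41a3 (-1.34 in the Vcan-led cluster, adjusted p = 0.0533 by edgeR) and for the zinc carrier Slc39a13 (-1.03 there, adjusted p = 0.232 by edgeR), whose class calls were also lost without Lyz2-cre naive and, for Slc39a13, without Lyz2-cre 3 h. By substrate, amino acid carriers rose in 2 and fell in 4 of 19 cases. Metal carriers rose in 4 and fell in 2 of 19, and ion carriers rose in 2 and fell in 3 of 15. Of all genes 13.3% rose and 12.6% fell.

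At 1 h against naive 1 member rose and 1 fell in monocyte-like cells, beside 2.02% of all genes (1.09% rose and 0.928% fell). Slc9a3r1 was at 131 (Lyz2-cre) and 119 CPM (fl/fl) at 1 h and 64.2 and 83.4 CPM in naive brain (0.88 ± 0.18, adjusted p = 0.0365 by edgeR), a call lost without Lyz2-cre naive or Lyz2-cre 1 h. Summed neutrophil markers were 3780 CPM in the Lyz2-cre 1 h sum and 278 CPM in the fl/fl 1 h sum. The count of calls was 0 without Lyz2-cre naive or Lyz2-cre 1 h and 5 without fl/fl 1 h, fl/fl 3 h or Lyz2-cre 3 h. Between 3 h and 1 h 9 rose and 19 fell, beside 19.5% of all genes (10.4% rose and 9.02% fell), with 13 calls without Lyz2-cre 1 h and 15 without Lyz2-cre 3 h.

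In neutrophil-like cells 17 of 93 members rose and 10 fell at 3 h, 29% beside 28.4% of all genes (16.4% rose and 11.9% fell), and 9 were called without fl/fl naive. A cluster led by Ltf, a granule gene of younger neutrophils, made up 3.15% (Lyz2-cre) and 3.35% (fl/fl) of the class at 3 h and 51.5% and 39.7% in naive brain, and without it 10 members were called. Outside that cluster the times were separate too. Cluster 6, led by Retnlg and Cxcr2, held 90.2% (Lyz2-cre) and 88.5% (fl/fl) of the class at 3 h and 1.32% and 0% in naive brain, and cluster 12, led by Retnlg and Mmp9, held 5.91% and 6.33% at 3 h and 47.2% and 60.3% in naive brain. The summed neutrophil markers stood at 172000 (Lyz2-cre) and 190000 CPM (fl/fl) at 3 h and 373000 and 323000 CPM in naive brain, with 7 of 10 lower and 3 higher. The summed monocyte markers stood at 1340 and 1270 CPM at 3 h and 4590 and 3780 CPM in naive brain, though 6 of the 10 were higher in both 3 h libraries and 2 lower. Their part in the changes was not tested beyond the values without the Ltf-led cluster.

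Amino acid carriers rose in 5 of 13 cases and none fell, beside 16.4% and 11.9% of all genes. Slc3a2 was at 32.7, 150 and 131 CPM in Lyz2-cre naive, 1 h and 3 h neutrophil-like cells and 35.2, 115 and 139 CPM in fl/fl cells, a rise of 2.14 ± 0.29 at 1 h and 2.12 ± 0.29 at 3 h (adjusted p = 0.00733 and 0.000689 by edgeR). The call at 3 h held without any 1 library, and that at 1 h was lost without either naive library. Slc38a1, a glutamine carrier, was at 47.1 (Lyz2-cre) and 39.3 CPM (fl/fl) at 3 h and 9.44 and 1.85 CPM in naive brain (2.63 ± 0.54, adjusted p = 0.00549 by edgeR). That fl/fl naive level was the lowest nonzero level of any member in its sum, so the size of the rise is uncertain. Slc35f5 was at 36.7 and 37.3 CPM at 3 h and 5.03 and 5.56 CPM in naive brain, a rise of 2.83 ± 0.43 with the Ltf-led cluster and 1.69 without it. The magnesium carrier Slc41a1 had no UMI in either naive library and 9.72 (Lyz2-cre) and 7.91 CPM (fl/fl) at 3 h, at least 6.18-fold higher, a call lost without Lyz2-cre naive.

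The deepest faller, like Slc41a1 and Slc39a3, had no value without the Ltf-led cluster, and that cluster's part in these changes was not tested. This faller was Slc17a9, which loads nucleotides into vesicles. It was at 24.5, 14.0 and 3.24 CPM in Lyz2-cre naive, 1 h and 3 h neutrophil-like cells and 18.5, 6.03 and 3.11 CPM in fl/fl cells (-2.60 ± 0.46 at 3 h, adjusted p = 0.0026 by edgeR), and the call held without any 1 library. Slc25a24 fell by 1.71 ± 0.35 in the class, a call lost without fl/fl naive, and without the Ltf-led cluster its change was -0.15 (adjusted p = 0.878 by edgeR). Of metal carriers 2 rose and 4 fell of 13, beside 16.4% and 11.9% of all genes. Slc39a3, a zinc importer, fell by 1.77 ± 0.56, a call lost without fl/fl naive or either 3 h library. At 1 h 2 members rose, beside 1.11% of all genes (1.07% rose and 0.0413% fell). These were Slc3a2 and Slc25a33, of which Slc25a33 was at 57.1 (Lyz2-cre) and 124 CPM (fl/fl) at 1 h and 22.7 and 20.4 CPM in naive brain (2.0 ± 0.31, adjusted p = 0.0125 by edgeR, lost without fl/fl naive). The count was 0 without fl/fl naive, 1 without Lyz2-cre naive, 5 without either 1 h library and 4 without either 3 h library. Between 3 h and 1 h 12 rose and 7 fell, beside 23.1% of all genes (14.1% rose and 8.99% fell). That count was 33 without fl/fl 1 h, 6 without Lyz2-cre 1 h and 12 without Lyz2-cre 3 h.

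Some members were called at 3 h in opposite directions in microglia-like cells and in another class, and for these the difference between classes was tested as an interaction of class and time. Slc16a6, which fell in microglia-like cells, rose by 0.93 in neutrophil-like cells and by 2.46 in monocyte-like cells, and the differences from microglia-like cells were 1.49 ± 0.25 (adjusted p = 3.28e-06) and 2.83 ± 0.30 (adjusted p = 4.31e-12), by edgeR. Slc15a4 fell by 1.37 on the log2 scale in monocyte-like cells, a difference of -1.81 ± 0.24 (adjusted p = 1.16e-08 by edgeR). Slc16a10 and Slc7a1 also fell in monocyte-like and rose in microglia-like cells, with differences of -1.72 ± 0.25 and -1.64 ± 0.32. In monocyte-like cells Slc16a10 was at 24.4 (Lyz2-cre) and 21.1 CPM (fl/fl) at 3 h and 57.7 and 28.8 CPM in naive brain. Slc7a1 was at 11.74 and 11.15 CPM in the same 3 h sums and at 28.27 and 14.37 CPM in the naive ones. The members were picked for opposite calls, so the tests describe the size of the difference.

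**Figure D5:**
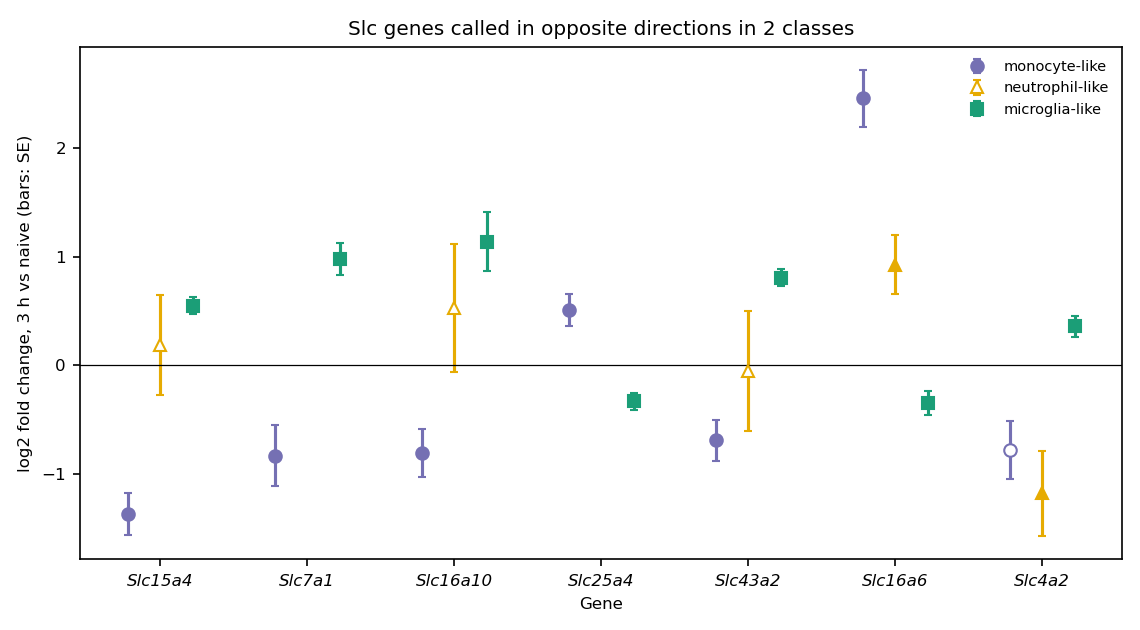
Points are log2 fold changes at 3 h against naive, with SE as bars, in monocyte-like, neutrophil-like and microglia-like cells, for the Slc genes called in opposite directions; filled points had an adjusted p under 0.05. Slc16a6 lies at 2.46, 0.93 and -0.35 in these classes.

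Promoters are shown for Slc46a1 and Slc20a1, a faller and a riser of microglia-like cells picked after their values were seen. The windows run from 250 bases before to 50 bases after the RefSeq gene start on GRCm38.p6, both on the plus strand (chr11:78465451-78465750 and chr2:129198523-129198822), and a RefSeq promoter was found for 132 of the 173 members. Capitals mark the E-box CACGTG, which lysosomal and growth regulators of the basic helix-loop-helix type are known to bind.
Slc46a1: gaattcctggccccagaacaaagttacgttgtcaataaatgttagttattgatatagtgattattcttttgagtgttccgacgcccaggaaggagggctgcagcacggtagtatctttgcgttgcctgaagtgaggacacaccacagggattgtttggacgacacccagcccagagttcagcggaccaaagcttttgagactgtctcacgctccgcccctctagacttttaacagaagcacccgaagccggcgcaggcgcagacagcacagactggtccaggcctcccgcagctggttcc
Slc20a1: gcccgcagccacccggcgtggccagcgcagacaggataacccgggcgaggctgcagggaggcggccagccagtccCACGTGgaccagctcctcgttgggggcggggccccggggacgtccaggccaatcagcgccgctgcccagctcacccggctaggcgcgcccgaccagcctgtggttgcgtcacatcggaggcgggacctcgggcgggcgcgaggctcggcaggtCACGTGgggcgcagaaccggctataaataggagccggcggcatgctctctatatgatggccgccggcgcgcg
The Slc20a1 window shown holds the E-box at 2 places and the Slc46a1 window none of the motifs searched. A second Slc20a1 window (chr2:129206846-129207145), not shown, holds no E-box but a core of the antioxidant response element. A gene was counted below when any of its windows held the motif. On either strand CACGTG was found in 24 of the 132 promoters (18.2%), beside 8.09% of 27025 promoters of all genes, and in 4 of the 34 promoters of members that rose at 3 h in microglia-like cells and 8 of the 39 of those that fell. The core TGACNNNGC of the antioxidant response element was in 25% of member promoters and 14% of all promoters, the AP-1 motif TGACTCA in 3.79% and 5.95%, and the PU.1 core GAGGAAG in 12.9% and 15.4%. Letters in a window do not show that a factor was bound.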

How the data were processed

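The deposited values are raw UMI counts, whole numbers that the authors made with Cell Ranger 3.0.2 on build mm10, per the submitters' processing notes. Cells needed 300 detected genes and no more than 10% mitochondrial UMIs, which 50634 of 51005 barcodes met. The cells most like simulated doublets were then removed, 0.8% per 1000 barcodes of a library and 3557 in all. The other 47077 were scaled to 10000 UMIs and clustered on 2000 variable genes without Slc genes (30 principal components, 15 neighbours, Leiden resolution 1), which gave 32 clusters. Each was named by its best-scoring marker list, given 3 markers detected in 10% of cells and no lead of a rival list in its top 10 genes. Unnamed cells were 1.34% to 5.39% of a library, and the names rest on markers alone.

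Raw counts were summed per library and class, where every library had at least 20 cells, and tested with edgeR's quasi-likelihood test (TMM, filterByExpr, genotype plus time, 2 residual degrees of freedom). p-values were Benjamini-Hochberg adjusted over all genes tested, with a call under 0.05; an SE is the absolute log2 fold change over the square root of F. Prior degrees of freedom were 8.36 for microglia-like, 9.17 for monocyte-like and 8 for neutrophil-like sums. The test was tried on simulated counts. Class contrasts used 18 sums with libraries as blocks. Intervals are exact at 95% and, like floors of 3 UMIs, cover counting error only. Python 3.11.15, numpy 2.4.6, scipy 1.17.1, pandas 2.3.3, scikit-learn 1.9.0, igraph 0.11.9, leidenalg 0.10.2, matplotlib 3.10.9, R 4.3.3, edgeR 4.0.16, limma 3.58.1 and DESeq2 1.42.0 were used.

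Named in microglia-like cells were Slc46a1, the 10 called members with the largest rise and the 10 with the largest fall per time comparison whose libraries did not overlap, and up to 4 per substrate group; in the other classes 6 per direction; the 8 highest per class; and 8 per direction in each class contrast. Slc19a1, Slc52a2, Slc15a4, Slc39a10, the members called in opposite directions and the genes shown from other lists were chosen after their values were seen. The members, lists and tests were chosen with earlier results of these data known. Substrate groups follow Slc families and are approximate, since some families carry several kinds of cargo. Alternatives were other size factors, no low-count filter, DESeq2, time without the genotype term, each library left out, a minimum of 1000 genes with a ceiling of 5% mitochondrial UMIs, doublets kept, Slc genes used in clustering and, added after the data were seen, single monocyte clusters and neutrophil-like cells without the Ltf-led cluster. Exons of 5 members overlap another gene on the same strand and those of 42 a gene on the other strand. Values of 1 member called at 1 h in monocyte-like cells are not reported here.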

Additional observations from a re-analysis of the deposited data

Results flagged for a closer look

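Among members called at 3 h against naive in 2 classes, 7 moved in opposite directions, 1 of them in both other classes, and the difference between classes passed the edgeR interaction test for each. The members were picked for opposite calls, which nearly fixes that outcome, so the p-values are not independent support. Each value below is a log2 fold change or the difference of 2 such changes, monocyte-like or neutrophil-like minus microglia-like, with adjusted p-values by edgeR. The Treml4-led share of monocyte-like cells and the shares of clusters within neutrophil-like cells changed over the same time, and their part in the differences was not tested.

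Slc15a4, a lysosomal carrier of histidine and peptides, changed by -1.37 in monocyte-like and 0.55 in microglia-like cells, a difference of -1.81 ± 0.24 (adjusted p = 1.16e-08). Its monocyte-like level was 26.5 (Lyz2-cre) and 42.8 CPM (fl/fl) at 3 h and 89.5 and 101 CPM in naive brain. Slc7a1, the arginine and lysine importer, changed by -0.83 and 0.98, a difference of -1.64 ± 0.32 (adjusted p = 6.58e-05). In Lyz2-cre monocyte-like cells Slc7a1 was at 28.27 CPM in naive brain and 11.74 CPM at 3 h. The fl/fl levels lay closer together, at 14.37 and 11.15 CPM. Slc16a10, the aromatic amino acid carrier, changed by -0.81 and 1.14, a difference of -1.72 ± 0.25 (adjusted p = 1.37e-07). Slc43a2, the carrier of neutral amino acids, changed by -0.69 and 0.81, a difference of -1.37 ± 0.31 (adjusted p = 0.00428).

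Slc25a4, the mitochondrial ADP/ATP carrier that neutrophil-like cells nearly lacked, changed by 0.51 in monocyte-like and -0.33 in microglia-like cells, a difference of 0.92 ± 0.23 (adjusted p = 0.00326). Slc16a6 changed by 2.46 in monocyte-like, 0.93 in neutrophil-like and -0.35 in microglia-like cells, with differences of 2.83 ± 0.30 and 1.49 ± 0.25. In neutrophil-like cells it was at 110 (Lyz2-cre) and 81.9 CPM (fl/fl) at 3 h and 44 and 66.7 CPM in naive brain. Slc4a2, an exchanger of chloride and bicarbonate, changed by -1.18 in neutrophil-like and 0.36 in microglia-like cells, a difference of -1.38 ± 0.37 (adjusted p = 0.00385). It was at 8.28 and 8.48 CPM at 3 h in Lyz2-cre and fl/fl neutrophil-like cells and 26.4 and 13 CPM in naive ones.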

How the results depend on the processing

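No paired analysis was possible because the labels give each group 1 library and no replicate numbers. No result reversed under any alternative. Over the named genes and alternatives, 1996 values kept their direction and side of the threshold, 180 kept their direction but lost the call, and 5 gained it. Left out 1 at a time, libraries gave 20 to 67 members called in microglia-like cells at 1 h against naive, 48 to 89 at 3 h against naive, 60 to 94 at 3 h against 1 h and 0 to 3 for genotype. The same ranges were 0 to 5, 19 to 49, 13 to 30 and 0 in monocyte-like cells, 0 to 5, 9 to 40, 6 to 33 and 0 in neutrophil-like cells, and 69 to 73 and 115 to 118 for microglia-like cells against monocyte-like and neutrophil-like cells.

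With no low-count filter, genotype calls were 3 in microglia-like cells and 2 in monocyte-like cells, and calls at 1 h against naive were 7 in monocyte-like cells and 4 in neutrophil-like cells. DESeq2 called 1 member for genotype in microglia-like cells. In monocyte-like cells it called 0 at 1 h, 18 at 3 h against naive and 13 at 3 h against 1 h, and in neutrophil-like cells 13 and 7 for the 3 h comparisons. The Vcan-led monocyte cluster alone gave 0, 18 and 18 calls at 1 h against naive, 3 h against naive and 3 h against 1 h, and the Treml4-led cluster alone gave 1, 2 and 1. Without the Ltf-led cluster neutrophil-like cells gave 4 at 1 h and 10 at 3 h against naive, and the stricter cell filter gave 17 at 3 h. The causes of these shifts were not tested. A fit without 1 library leaves its group's partner alone at that time, assumed to vary like the rest. Depth limits the small classes most: the naive fl/fl sums rest on 103 monocyte-like and 141 neutrophil-like cells.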

Other observations

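The ABC transporters, the other large family of membrane carriers, were set beside the Slc genes by the same UMI minimum. Of 29 tested in microglia-like cells at 3 h against naive 5 rose and 11 fell, where 24.6% of all genes rose and 23.6% fell, with a median log2 fold change of -0.29 beside 0.01 for the Slc members and -0.02 for all genes. Abca2, a lipid transporter of endosomes and lysosomes, was at 5.78 (Lyz2-cre) and 4.85 CPM (fl/fl) at 3 h and 9.72 and 10.1 CPM in naive cells, a change of -0.79 ± 0.15 (adjusted p = 0.0018 by edgeR). Among the sodium-potassium pump genes Fxyd5, a regulatory subunit, was at 17.9 (Lyz2-cre) and 27.8 CPM (fl/fl) at 3 h and 6.86 and 6.57 CPM in naive cells, a change of 1.84 ± 0.24 (adjusted p = 0.00136 by edgeR).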
